A study of Mus musculus with 3 samples.

Results

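Collagens and other proteins of the extracellular matrix were followed across 3 cultures of C2C12, a line of mouse myoblasts whose cells can fuse into muscle fibres. The list names 44 genes, chosen by symbol with earlier results of these data known. Of these, 41 have at least 1 probe set annotated to them alone, 74 probe sets in all, out of 12393 genes and 22690 probe sets on the array. Of the other 3 members, Fbn1 and Efemp2 had no probe set in the annotation used, and the probe set of Loxl2 is annotated to another gene as well, so none of them was used. The series asked how transfection of diacylglycerol kinase zeta, a kinase that turns diacylglycerol into phosphatidic acid, changes gene expression. One group was untreated, one was transfected with EGFP, the green fluorescent protein that controls for transfection, and one with DGKzeta, and each is labelled 12 h. All cells grew in medium with fetal calf serum and penicillin/streptomycin, transfection used the FuGene method, and plating came 18 h before it. The sources used here do not give the share of cells that took up DNA or the construct sequence, and all values come from whole cultures of a single clonal line.

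Fibrillar collagens assemble from 3 chains into the cables that give tissue its tensile strength, and beaded, network and fibril-associated collagens connect them. Around a muscle fibre, type IV collagen and laminins form the sheets of the basement membrane, which nidogens and perlecan link together. Fibronectin and the thrombospondins bind cells to this scaffold, and lysyl oxidases cross-link collagen and elastin. Myoblasts make much of this matrix themselves, and its composition is known to affect their adhesion and differentiation.

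Each of the 3 groups had 1 array, so no difference below has a replicate check, no p-value is given, and the number of arrays limits the precision. A probe set counted as measured where its signal, an intensity in linear MAS5 units, reached 107, the median of all values pooled. Values under that floor were raised to it before ratios were taken, and a difference was called at 2-fold, a log2 ratio of 1 or more in size. Dgkz, the transfected gene, had a log2 ratio of 3.68 over EGFP by its brighter probe set, in the direction of the label. The DGKzeta array had the lowest median signal (92.5, against 111 and 119), and its Actb 3′ to 5′ signal ratio was 2.55, against 1.43 for EGFP and 1.27 for untreated cells, with 0.931, 0.902 and 0.841 for Gapdh. The part of these differences in the results was not tested. Of 9 myoblast markers on the array, 7 were measured in untreated cells, 6 in EGFP and 6 in DGKzeta cells, with summed signals of 3575 to 3699. Their median log2 ratio was -0.67 to EGFP over 6 genes and -0.18 to untreated over 7, and the genes did not go one way. By brightest probe sets Ncam1 (-1.31), Des (-0.96), Six4 (-0.72) and Cdh15 (-0.62) were below EGFP, while Myf5 (0.73) and Vcam1 (0.19) were above it. The second Vcam1 set went the other way, at -0.73 to EGFP, and the second Ncam1 set was at -0.25. The part of these differences in the results was also not tested. Myf5 and Des were among them, but Myod1, a defining myoblast factor, was under the floor on every array (23.7 to 35.1). Of 14 markers of differentiated muscle, Acta1 alone reached the floor, in untreated and EGFP cells, and no endothelial marker of 7 did. Among 7 leukocyte markers Cd14 was measured on all 3 arrays and Csf1r in untreated cells, with Ptprc at 0.672 to 11.4. Krt14 was the epithelial gene of 6 above the floor, and Sox9 was the gene measured among 5 of adipocytes and chondrocytes. Its signal was 402 in untreated, 403 in EGFP and 177 in DGKzeta cells by the brightest probe set, 2.28-fold below each control. Under the overall-median scaling described below, those log2 ratios were -0.83 to EGFP and -0.92 to untreated, short of 2-fold. The other Sox9 set was at -0.92 to EGFP and -1.07 to untreated on the deposited scale. Adipoq, Fabp4, Acan and Col2a1 were under the floor on every array, at 22.7 or less by their brightest probe sets. The part of the Sox9 difference in the results was not tested.

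On the deposited scale, most matrix genes were lower in DGKzeta cells than in either control, though against EGFP the median turned above 0 under 1 of 3 other scalings given below. By the brightest probe set of each gene, 31 members were measured on at least 1 array of the comparison with EGFP, and 23 of them (74.2%) were lower in DGKzeta cells, beside 52.6% of all genes. Their median log2 ratio was -0.25, against -0.02 over all 6926 genes measured in that comparison. At least 2-fold lower were 3 members (Col8a1, Sparc and Lama5), where 2.84% of all genes were, and 0 were at least 2-fold higher, where 0.347% of all genes were. Under the overall-median scaling described below Sparc (-0.80) and Lama5 (-0.67) were no longer called, which left Col8a1, and Lama5 also lost the call under quantile normalization (-0.88). Against untreated cells 25 of 31 members (80.6%) were lower, beside 51.7% of all genes, with a median of -0.29, where all genes had -0.02. There Col8a1, Fbln2 and Col1a2 were at least 2-fold lower, 3 of 31 members beside 2.8% of all genes, and again 0 members were at least 2-fold higher, beside 1.34%. Under overall-median scaling Fbln2 (-0.87) and Col1a2 (-0.78) lost these calls. The highest there were Lamb1 at 0.61, Vcan at 0.30 and Col5a3 at 0.15. Both comparisons use the same DGKzeta array, so the second is no independent repeat of the first. In a whole culture, fewer cells of a kind and less RNA per cell cannot be told apart.

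The sign of small ratios rested on how the arrays were scaled, for which 3 other scalings were tried. A scaling that gives the arrays equal medians over every named probe set (from here on, overall-median scaling) moved the median of all genes to 0.33 against EGFP and that of the members to 0.09, so that 20 of 32 members lay above 0. The members then stood 0.24 below all genes, where the deposited scale put them 0.23 below, quantile normalization 0.23 and the same scaling over sets measured on all 3 arrays 0.22. Making medians equal multiplies each array by a single factor. It moves members and all genes alike, so it cannot test this distance. The distance did depend on the floor and the probe sets. With the floor at the 25th percentile the members stood 0.09 below all genes against EGFP and 0.26 below against untreated cells. By second-brightest sets they stood 0.15 below all genes against EGFP and 0.08 above against untreated cells. Of 38 member probe sets lower than EGFP as deposited, 19 stayed lower under all 3 of these scalings, and those that turned had ratios of -0.36 or nearer to 0. Against untreated cells, 27 of 37 stayed lower.

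**Figure D1:**
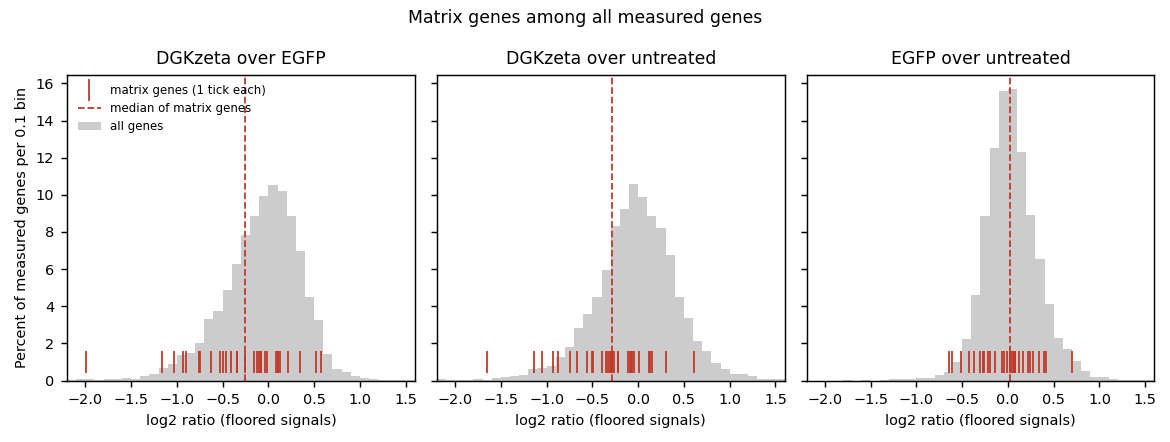
Log2 ratios of floored signals (x axis) for all genes measured on at least 1 of both arrays, as grey bars in percent of those genes per 0.1 bin, in 3 panels, with values beyond the axis not drawn. Red ticks mark single matrix genes by the brightest probe set, and the dashed line their median, which lies at -0.25, -0.29 and 0.02 from left to right on the deposited scale (0.09, -0.03 and -0.08 under overall-median scaling).

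Fibrillar collagens did not move as a block. Of 6 measured genes 5 were lower than in EGFP cells, with a median log2 ratio of -0.06 that turned to 0.30 under overall-median scaling. Col1a1 at -0.63 was the lowest of them and Col5a2 at 0.11 the highest. Col1a1, which encodes the major chain of type I collagen, read 325 in untreated, 340.3 in EGFP and 220.5 in DGKzeta cells. The DGKzeta array was thus below both controls, which lay close together, and the ratio to EGFP stayed below 0 in all 3 other scalings. The other Col1a1 probe set was at 96.8, 135 and 101, and reached the floor in EGFP cells alone.

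Col1a2, the partner chain of type I collagen, gave different answers from its 2 probe sets. The brightest read 3375 in untreated, 2167 in EGFP and 1633 in DGKzeta cells, and its log2 ratio was -1.05 to untreated and -0.41 to EGFP. Most of its distance from untreated cells was already present on the EGFP array, at -0.64. The other probe set had 1284, 1335 and 1474, with DGKzeta the highest of the 3 arrays at 0.20 above untreated and 0.14 above EGFP.

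Types III and V, which co-assemble with type I in fibrils, showed the same kind of split. The brightest probe set of Col3a1 had 8486, 7030 and 6918 in untreated, EGFP and DGKzeta cells, so that both transfected cultures lay together under the untreated one. Its other probe set, at 546, 566 and 930.4, put DGKzeta cells 0.72 above EGFP and 0.77 above untreated on the log2 scale, the highest member ratio in each of these comparisons over all probe sets. Col5a2, the neighbour of Col3a1 on chromosome 1, had signals of 5522, 4739 and 5117 by the brightest and 665, 708 and 975 by the other probe set, which placed DGKzeta cells 0.46 above EGFP. For both neighbours the second probe set gave a higher DGKzeta level than either control, and the brightest did not.

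Col5a1, the chain that pairs with Col5a2, was lower than EGFP by each of its 3 probe sets, at -0.04, -0.30 and -0.65, of which the first pair turned above 0 under overall-median scaling. Its dimmest set had 225, 214 and 136 in untreated, EGFP and DGKzeta cells. Col5a3 differed little, with 286, 337 and 318. Col11a1, a minor fibrillar chain best known from cartilage, was under the floor on every array, at 12.7 or less.

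Col8a1, a short-chain network collagen, was the lowest member of the list in DGKzeta cells by the brightest probe sets. The signal of its measured probe set was 550.2 in untreated, 694 in EGFP and 175 in DGKzeta cells. The DGKzeta value was 3.97-fold below EGFP and 3.14-fold below untreated, while EGFP stood 0.34 above untreated on the log2 scale. Under the scalings tried the ratio to EGFP ranged from -1.99 to -1.62. The second Col8a1 probe set was under the floor on all 3 arrays (58.6, 74.3 and 74.0), so it gives no repeat of the difference.

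The collagens of beaded filaments, type VI, are prominent in the matrix around muscle fibres. Col6a1 had 213, 225 and 134 in untreated, EGFP and DGKzeta cells, so its log2 ratio was -0.75 to EGFP and -0.67 to untreated. Col6a3 was at 4680.5, 4935 and 4418, a ratio of -0.16 against EGFP that turned to 0.20 under overall-median scaling. Col6a2, the third chain and the neighbour of Col6a1, was under the floor by both probe sets (74.8 to 96.8). Col12a1, a fibril-associated collagen, was at 140.0, 184 and 133, with the untreated and DGKzeta arrays together under EGFP.

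Among basement membrane genes 7 of 9 measured ones were lower than EGFP (median -0.25) and 8 of 9 lower than untreated (median -0.35). Under overall-median scaling 3 of 9 were lower than EGFP (median 0.12) and 6 of 9 lower than untreated. The group stood 0.22 and 0.32 below all genes, a distance that this scaling hardly alters by design. Col4a1 and Col4a2, whose chains form the type IV collagen network and whose genes are neighbours on chromosome 8, were both lower in DGKzeta cells. Col4a1 had 4738, 4716.5 and 3730 by the brightest and 1761, 1699 and 1101 by the other probe set, in the order untreated, EGFP, DGKzeta. The controls differed by 0.05 or less on the log2 scale in each, and DGKzeta cells lay 0.34 and 0.63 below EGFP. Col4a2 had 2015, 2245 and 1891, a ratio of -0.25 against EGFP and -0.09 against untreated, which is closer to the controls than its partner chain. Under overall-median scaling the Col4a2 ratio to EGFP turned to 0.12 and that of the brightest Col4a1 set to 0.03.

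Laminin chains differed in direction. Lamc1, the gamma chain shared by most laminins, read 699.6 in untreated, 709 in EGFP and 379 in DGKzeta cells, so its log2 ratio was -0.90 to EGFP and -0.88 to untreated. The controls lay together and the DGKzeta array well below them, but the other Lamc1 probe set was under the floor. Lama5, an alpha chain of basement membranes, had 396, 644 and 315. It was 2.04-fold below EGFP, a call that ended under each of the 3 other scalings (-0.93 to -0.67), but 0.33 below untreated on the log2 scale, as the EGFP array stood above untreated by 0.70, the highest ratio of any member between the controls. The second Lama5 probe set, which may also match related transcripts by its _s_at suffix, had 201, 234 and 191.

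Lamb1, a beta chain that joins these in the laminin trimer, had the highest ratio to each control among members measured on all 3 arrays, by brightest probe sets. That set, which may match other transcripts by its _s_at suffix, had 1920, 1972 and 2939 in untreated, EGFP and DGKzeta cells, 1.49-fold above EGFP. The next had 634, 560 and 691, also highest in DGKzeta cells. The third had 554, 382 and 235, which is 2.36-fold below untreated and 0.70 below EGFP on the log2 scale, so the probe sets of a single gene covered log2 ratios to untreated from -1.24 to 0.61. Lama4 was under the floor on every array.

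Nidogens, which bridge laminin and type IV collagen, were lower than in untreated cells on both transfected arrays. The brightest Nid1 probe set had 5680, 4601 and 4304 in untreated, EGFP and DGKzeta cells. The other had 737, 427 and 211, a step down at each culture that ended 3.49-fold below untreated and 2.03-fold below EGFP. Nid2 had 294, 192 and 209.9, with the EGFP array the lowest. The ratio of EGFP to untreated, -0.79 by the dimmer Nid1 set and -0.61 for Nid2, was thus part of the distance between DGKzeta and untreated cells.

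Hspg2, which encodes the heparan sulfate proteoglycan perlecan, was lower in DGKzeta cells by both probe sets. They had 576, 693 and 408 and, for the other, 441, 423 and 344, with ratios to EGFP of -0.76 and -0.30. The larger of these is from a set of suffix _s_at, and the smaller turned to 0.06 under overall-median scaling. Col18a1, the source of endostatin, was at 366, 385 and 353 by its brightest set, the arrays lying close together. Col15a1 was under the floor throughout, at 17.4 or less.

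**Figure D2:**
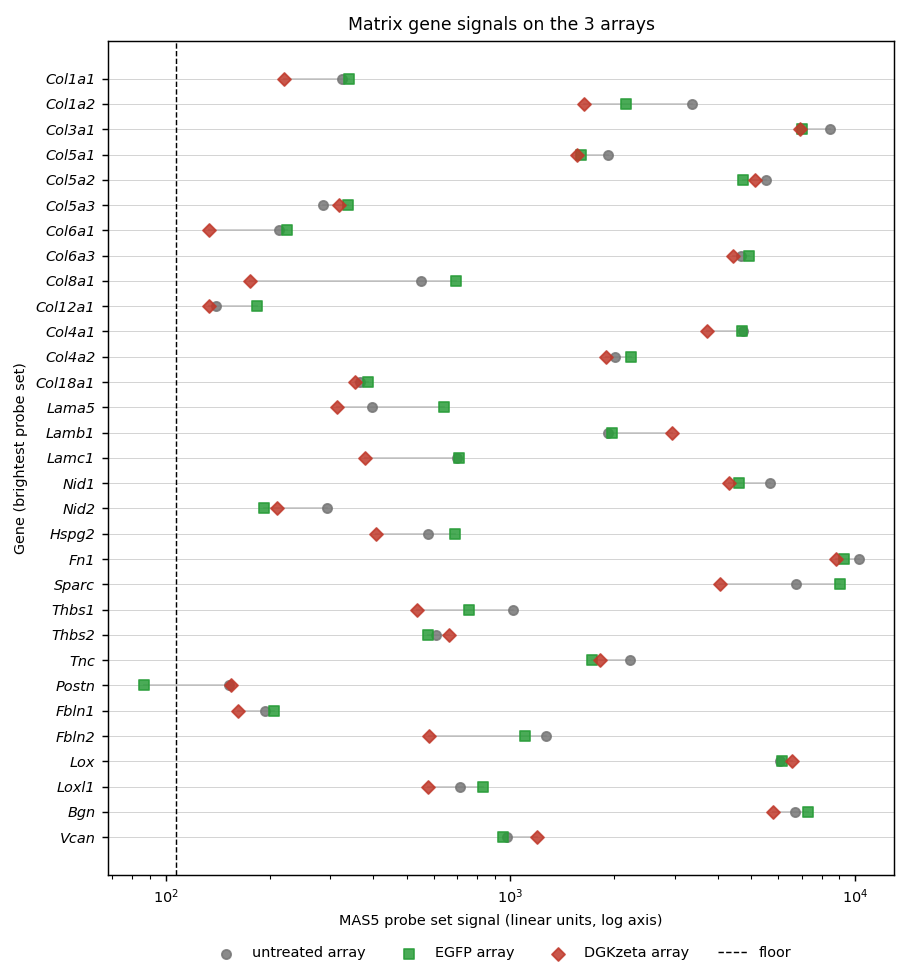
MAS5 signals in linear units on a log axis for the brightest probe set of each of the 31 matrix genes that reached the floor of 107 (dashed line) on at least 1 array. Each point is the single array of a group, and the grey line spans the 3 values; Col8a1 spans 175 to 694 with DGKzeta lowest, and Lamb1 spans 1920 to 2939 with DGKzeta highest.

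Adhesive and matricellular glycoproteins were split, with 3 of 6 measured genes above and 3 below EGFP and a median of 0.00 (4 above and 0.36 under overall-median scaling). Postn, among those above, was under the floor in EGFP cells and is counted only through its higher DGKzeta array. The even split and the median thus depend on a bound. Fn1, which encodes fibronectin, had 10252 in untreated, 9307 in EGFP and 8823 in DGKzeta cells by its brightest probe set, a ratio of only -0.08 against EGFP that turned to 0.29 under overall-median scaling. Its other probe set had 525, 496 and 194 and was 2.56-fold below EGFP. Both sets ordered the cultures alike, with DGKzeta lowest, but differed by 1.28 on the log2 scale, the widest gap in that comparison between the 2 brightest sets of any member.

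Sparc, a collagen-binding matricellular protein, gave the next widest gap. The brightest probe set had 6756, 9071 and 4047 in untreated, EGFP and DGKzeta cells, 2.24-fold below EGFP (a log2 ratio of -1.16, and -0.80 under overall-median scaling). The second had 3927, 5442 and 5494, which is level with EGFP at 0.01 and 0.48 above untreated. Both sets placed EGFP above untreated by nearly the same amount, 0.42 and 0.47, so they parted on the DGKzeta array alone.

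The thrombospondins, which bind cells, matrix and growth factors, moved apart from each other with each gene's probe sets on the same side. Thbs1 had 1018, 756 and 535 in untreated, EGFP and DGKzeta cells by the brightest set and 549, 406 and 243 by the other. Each set stepped down from untreated to EGFP to DGKzeta, with ratios to EGFP of -0.50 and -0.74 that stayed below 0 in every scaling. Thbs2 had 607, 576 and 665 by the brightest and 168, 213 and 267 by the other, which places DGKzeta above both controls in each, at 0.21 and 0.33 over EGFP. Of the 30 members with a probe set measured on all 3 arrays, Thbs2 was on the deposited scale the one whose measured sets all lay above both controls. Col18a1 and Col5a3 joined it under quantile normalization, and Lox and Col5a3 with medians made equal over sets measured on all 3 arrays. Under overall-median scaling Col18a1, Col4a2, Col5a2, Col5a3, Col6a3, Fbln1 and Lox joined it.

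Tnc, which encodes tenascin-C, had 2229, 1724 and 1820, the transfected cultures together under the untreated one. Postn, which encodes periostin, had 153, 86.2 and 154, so that EGFP was under the floor and DGKzeta cells were at least 1.44-fold higher than EGFP while level with untreated cells. Postn is measured in that comparison only through its higher array.

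Few elastic fibre genes reached the floor. Fbln2, which encodes fibulin-2, a protein of microfibrils and basement membranes, had a single probe set at 1272 in untreated, 1105 in EGFP and 579 in DGKzeta cells. It was 2.20-fold below untreated and 0.93 below EGFP on the log2 scale, with the controls 0.20 apart, and stayed below EGFP in every scaling (-0.93 to -0.57). Fbln1 had 194, 205 and 162, a smaller difference in the same direction that turned to 0.02 against EGFP under overall-median scaling. Eln, Mfap2, Mfap5 and Emilin1 were under the floor on every array.

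Of the cross-linking enzymes, Lox varied little. Its measured probe sets had 6052, 6125 and 6573, and 3901, 4029.5 and 3911, with ratios to EGFP of 0.10 and -0.04. Loxl1, best known for its role in elastic fibres, had 715, 834 and 577, a ratio of -0.53 against EGFP and -0.31 against untreated. Among proteoglycans, Bgn (biglycan) had 3 probe sets that ran close together, at 6719, 7293.5 and 5773 for the brightest, and ratios to EGFP of -0.34, -0.36 and -0.22. All of these turned just above 0 under overall-median scaling (0.01 to 0.14). Vcan (versican) had 976, 949 and 1199 by its brightest and 671, 555 and 490.1 by the next set, with opposite directions against EGFP (0.34 and -0.18). The third Vcan set was at 160.1 in untreated cells and under the floor on the other arrays, at 85.2 and 5.39. Dcn and Lum, neighbours on chromosome 10 that encode small collagen-binding proteoglycans, were under the floor throughout.

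**Figure D3:**
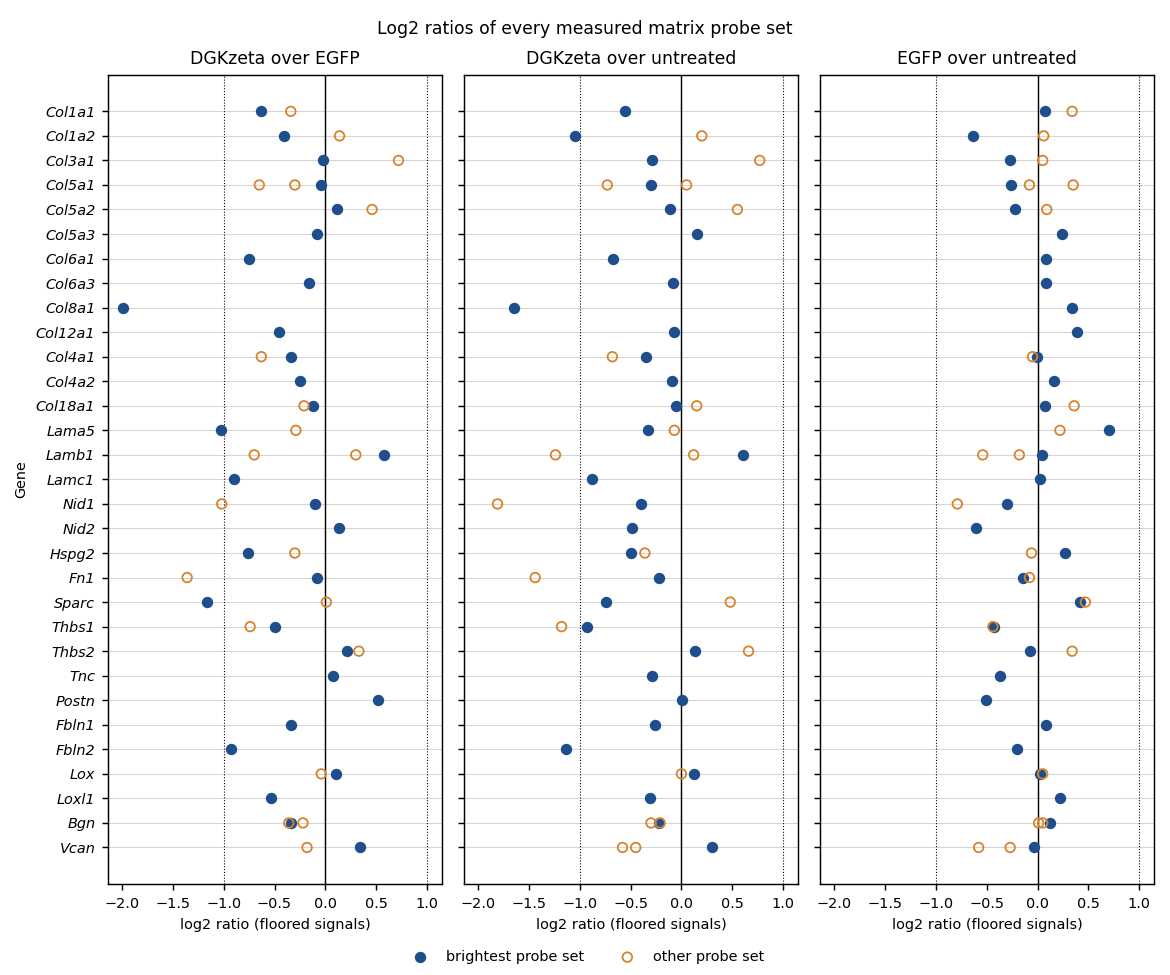
Log2 ratios of floored signals for every matrix probe set measured on at least 1 of both arrays, by gene, in 3 comparisons. Filled points are each gene's brightest probe set, open points its other sets, and dotted lines mark 2-fold; the lowest ratios to EGFP are those of Col8a1 (-1.99) and the second Fn1 set (-1.36), and between the controls no point passes 2-fold.

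How far probe sets of the same gene repeated each other could be asked for 17 members with at least 2 sets measured on all 3 arrays. Against EGFP, the 2 brightest sets were on the same side of 0 in 12 of 17 genes on the deposited scale, a share of 70.6%, beside 58.0% over all 2251 such genes. Of the 12, 9 were lower and 3 higher, where 628 and 678 of the 2251 were. Under overall-median scaling Thbs1 was the gene of the 17 lower by both sets. Bgn, Col18a1, Col3a1, Col5a1, Col5a2, Lamb1, Lox, Thbs2 and Vcan were then higher by both. On the deposited scale the 2 brightest sets were on the same side against untreated cells in 10 of 17 genes, 58.8% beside 56.1%. Between the controls they were so in 10 of 17 as well, beside 58.4%. From the differences within these pairs, the log2 ratio of a member probe set had an SD of 0.44 for DGKzeta over EGFP, 0.55 for DGKzeta over untreated and 0.25 between the controls. Over all such genes the SDs were 0.40, 0.50 and 0.27. They cover different probes on the same RNA extracts, not the spread between cultures.

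On the deposited scale, in 7 of the 17 genes every measured probe set was lower in DGKzeta cells than in both controls, 41.2%, where 16.8% of all such genes were. They are Bgn, Col4a1, Fn1, Hspg2, Lama5, Nid1 and Thbs1. The count was 6 of 17 under quantile normalization (beside 12.6% of all such genes), 4 with medians made equal over sets measured on all 3 arrays (beside 11.8%) and 1, Thbs1, under overall-median scaling (beside 4.13%). In 1, Thbs2, every set was higher on the deposited scale, where 15.1% of all such genes were. In the other 9 the sets were divided or lay between the controls. The count of genes higher by every set was 2 under quantile normalization (beside 19.7%). It was 2 with medians made equal over sets measured on all 3 arrays (beside 24.1%) and 4 under overall-median scaling (beside 42.6%). Of the 13 members with 1 measured set 10 were lower than both controls, beside 45.9% of all such genes, and 0 higher, beside 33.7%. Under overall-median scaling 6 of 13 were lower, beside 18.1%, and 4 higher, beside 64.2%. The 6 are Col1a1, Col6a1, Col8a1, Fbln2, Lamc1 and Loxl1. Over single probe sets measured on all 3 arrays, 33 of 50 were lower in DGKzeta cells than in both controls, beside 43.0%, and 10 of 50 higher, beside 37.2%. Under overall-median scaling these were 17 of 50, beside 18.4%, and 23 of 50, beside 65.7%.

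**Figure D4:**
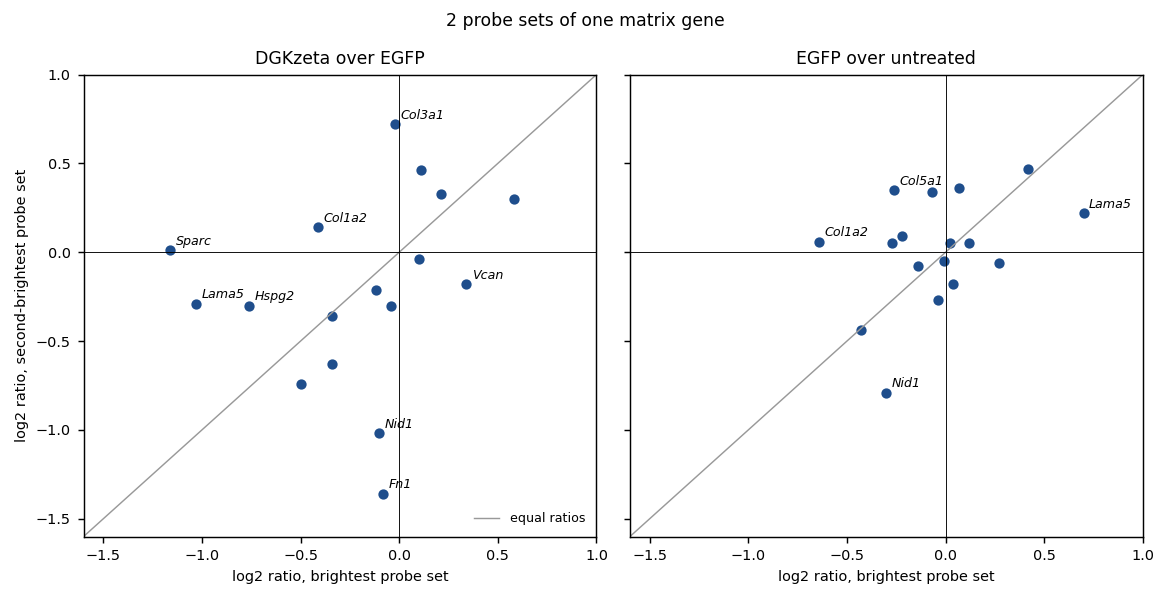
Log2 ratio by the brightest (x axis) and the second-brightest probe set (y axis) of the 17 matrix genes with at least 2 sets measured on all 3 arrays, for DGKzeta over EGFP (left) and EGFP over untreated (right). Each point is a gene, the grey line marks equal ratios, and genes whose sets differ by 0.45 or more are named; Fn1, Sparc and Nid1 lie far from the line on the left.

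Between EGFP and untreated cells matrix genes showed no common direction. Of 31 members 17 were higher and 14 lower in EGFP cells, with a median log2 ratio of 0.02, as for all genes. At least 2-fold higher or lower were 0 members, beside 0.361% and 0.303% of all genes. The highest by brightest probe sets were Lama5 at 0.70, Sparc at 0.42 and Col12a1 at 0.39, and the lowest were Col1a2 at -0.64, Nid2 at -0.61 and Thbs1 at -0.43, beside Postn with a bound of -0.51. Over all member probe sets, the ratios between the controls ran from -0.79 to 0.70. Against EGFP, 7 of 52 member probe sets were lower than that range on the deposited scale, beside 8.03% of all probe sets, and 1 was higher, beside 2.25%. Those below were of Col8a1, Fn1, Sparc, Lama5, Nid1, Fbln2 and Lamc1, and the 1 above was the second set of Col3a1. This lean did not hold under overall-median scaling, where the range was -0.89 to 0.60 over the same sets. Below it then were Col8a1 (-1.62) and the second Fn1 set (-0.99). Above it were sets of Col3a1 (1.08), Lamb1 (0.94 and 0.67), Col5a2 (0.82), Postn (0.74, a bound), Vcan (0.70) and Thbs2 (0.69). At 2-fold, 5 of 52 member probe sets were lower than EGFP, beside 4.28% of all probe sets, and 7 of 52 lower than untreated, beside 5.21%. The first count was 1 of 53 and the second 3 of 54 under overall-median scaling. No share of all probe sets at 2-fold is given for that scaling, and the shares on the deposited scale do not apply to it. At least 2-fold higher were 0 of 52 in each on the deposited scale, beside 0.497% and 1.84%. Under overall-median scaling 1 of 53 was higher than EGFP and 1 of 54 higher than untreated. Each time this was the second Col3a1 set, at 1.08 and 1.03. Between the controls 0 of 53 passed 2-fold in either direction, beside 0.785% lower and 0.447% higher.

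The sequences before the start sites of the members were searched for common promoter motifs. In the RefSeq promoter table of GRCm38.p6, 29 of the 44 members had an entry on 37 start sites, and the 250 bases before each start were read on both strands. GGGCGG, the GC box, was present before 24 of 37 member starts (64.9%), beside 32.7% of all 32851 starts in the table, which include those of genes with no protein product. CCAAT was present before 11 (29.7%, beside 33.8%) and TATAAA before 5 (13.5%, beside 12.4%). Among members with every measured probe set below both controls on the deposited scale the GC box was found for 8 of 11 genes with an entry, and among those divided or between the controls for 7 of 9. Col4a1, Col6a1 and Col6a3, of the members below both controls, had no GC box and are not among the stretches shown. The 150 bases before the start are shown for the member lowest in DGKzeta cells (Col8a1) and for Thbs2, higher by both sets. They are also shown for Fbln2 and Lama5, lower than both controls on the deposited scale, though Lama5 was not by every set under the other scalings. They read 5′ to 3′ along the gene, with capitals wherever a motif or its reverse complement occurs, none overlapping another.
Col8a1, chr16:57754738-57754887, minus strand: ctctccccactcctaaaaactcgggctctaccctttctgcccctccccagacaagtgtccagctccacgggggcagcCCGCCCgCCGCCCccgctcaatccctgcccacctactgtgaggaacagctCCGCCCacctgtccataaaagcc
Fbln2, chr6:91212614-91212763, plus strand: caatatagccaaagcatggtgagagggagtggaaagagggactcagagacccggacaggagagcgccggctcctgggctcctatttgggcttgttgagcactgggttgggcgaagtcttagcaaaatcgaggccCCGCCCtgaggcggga
Lama5, chr2:180225860-180226009, minus strand: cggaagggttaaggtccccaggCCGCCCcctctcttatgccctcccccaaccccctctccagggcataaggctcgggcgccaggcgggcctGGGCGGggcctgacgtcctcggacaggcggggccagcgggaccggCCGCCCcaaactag
Thbs2, chr17:14694263-14694412, minus strand: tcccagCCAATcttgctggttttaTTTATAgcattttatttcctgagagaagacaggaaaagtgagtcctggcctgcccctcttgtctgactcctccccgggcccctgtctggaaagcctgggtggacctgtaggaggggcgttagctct
The stretches of Col8a1 and Lama5 hold 3 GC boxes each and that of Fbln2 holds 1, while that of Thbs2 holds 0 GC boxes, 1 CCAAT and 1 TATAAA. G and C make up 64.7% of the bases for Col8a1, 59.3% for Fbln2, 73.3% for Lama5 and 53.3% for Thbs2. A match of letters is a description of the window and not a shown binding site.

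Enzymes and chaperones that fold, modify and export collagen were also mostly lower in DGKzeta cells on the deposited scale. Of 25 measured genes of that list 19 were lower than EGFP, with a median log2 ratio of -0.37, and 17 were lower than untreated, with a median of -0.23. Under overall-median scaling 13 and 11 of 25 were lower. The list stood 0.34 and 0.21 below all genes, a distance that this scaling hardly alters by design. Plod2, the lysyl hydroxylase of collagen telopeptides, was the 1 gene of 25 at least 2-fold lower by its brightest probe set, both against EGFP (beside 2.84% of all genes) and against untreated cells (beside 2.8%), and 0 were at least 2-fold higher. It had 1205 in untreated, 621 in EGFP and 281 in DGKzeta cells by its brightest probe set, a step down at each culture. Its log2 ratio to EGFP of -1.15, like that of Sparc (-1.16), loses the call under overall-median scaling. The other Plod2 set had 377, 497 and 514 and went the other way, at 0.05 against EGFP and 0.45 against untreated. By second-brightest sets Bmp1, a procollagen C-proteinase, was at -1.26 to EGFP and Colgalt1, a collagen galactosyltransferase, at -1.08 to untreated, where their brightest sets had -0.35 and -0.37. The second set of P3h1, a prolyl 3-hydroxylase, was at least 2.01-fold lower than in untreated cells.

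Other hydroxylases and chaperones had smaller differences. Plod1 had 499.6, 585 and 302 in untreated, EGFP and DGKzeta cells, and Plod3 had 985, 1233 and 782. Serpinh1, the collagen chaperone HSP47, had 2570.5, 2722 and 1991, with a second probe set at 2517, 2543 and 1883, so that both gave nearly the same ratio to EGFP (-0.45 and -0.43). P4hb, a subunit of prolyl 4-hydroxylase, had 8090, 7353 and 5708. Against these, Sec24d, a coat protein of the vesicles that carry procollagen, was highest in DGKzeta cells, at 957, 876 and 1260. By brightest sets Fkbp7 (0.41), Fkbp9 (0.40), Pcolce (0.24), Sec23a (0.11) and Sec13 (0.09) were also above EGFP, 6 of 25 genes with Sec24d. The brightest Fkbp9 set may match other transcripts by its _x_at suffix, and the second sets of Fkbp9 (-0.17) and Pcolce (-0.39) were below EGFP.

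By brightest probe sets, matrix receptors other than integrins had a median log2 ratio of -0.31 over 14 genes against EGFP, with 0 at least 2-fold apart, and of -0.29 over 15 against untreated, with 3 at least 2-fold lower, beside 2.8% of all genes. Both medians came near 0 under overall-median scaling, at 0.06 and -0.02. At least 2-fold lower than untreated were Ddr2, a receptor for fibrillar collagen, Sdc4, a syndecan, and Cd44, the hyaluronan receptor. Overall-median scaling raises ratios to untreated alike and took one of -1.24, of the third Lamb1 set, to -0.98. Under it Sdc4 (-1.17) and Cd44 (-1.16 by the brightest set) thus lose the call. Ddr2 had 344, 265 and 136 in untreated, EGFP and DGKzeta cells, and Sdc4 had 503, 279 and 223. Cd44 had 5211, 4107 and 2333 by the brightest and 1582, 1198 and 664 by the other probe set, with ratios to EGFP of -0.82 and -0.85. The EGFP array lay between the other arrays for all of them. Dag1, which encodes the laminin receptor dystroglycan, was divided. Its brightest set had 1343, 1530 and 1537, a ratio of 0.01 to EGFP, while its 3 other sets were at -1.19, -1.21 and, as a bound, -1.88. The first of these had 716, 545 and 238 in untreated, EGFP and DGKzeta cells, and some may match other transcripts by the _x_at suffix. The second set of Cspg4, the NG2 proteoglycan, had 259, 230 and 93.0, a bound of -1.10, where its brightest set had -0.52. Besides Dag1, the genes above EGFP by the brightest set were Sdc1 (0.77), Ddr1 (0.58) and Sdc2 (0.24), 4 of 14 in all. The brightest sets of Sdc1 and Ddr1 have the _x_at suffix too, so they may match other transcripts. Other measured sets of Sdc1 were at -0.02, -0.20 and, as a bound, -0.88. Those of Ddr1 were at -0.78 and, by a further _x_at set, 0.39, and those of Sdc2 at 0.20 and 0.11.

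Matrix genes outside the member list were closer to all genes. Over 21 measured ones the median was -0.11 against EGFP, with 13 lower and 8 higher, and 0.09 against untreated, and under overall-median scaling the first turned to 0.25. Ltbp4, which binds latent TGF-beta, was 2.05-fold below EGFP at 198, 238 and 116, a call that ends under overall-median scaling. Its relative Ltbp3 was 2.67-fold above untreated, at 612, 896 and 1632, by a set that may match other transcripts by its _s_at suffix. A second Ltbp3 set at 326, 511 and 540 had the EGFP and DGKzeta arrays close together. The second set of Matn2, a matrilin, was at 1.45 to untreated. Col16a1, at 104, 215.5 and 174, was at least 2.01-fold higher in EGFP than in untreated cells, the latter under the floor.

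Members under the floor by their brightest probe set on all 3 arrays numbered 10 of 41. They are Col11a1, Col6a2, Col15a1, Lama4, Eln, Mfap2, Mfap5, Emilin1, Dcn and Lum, for which no ratio is given. Of the 74 member probe sets 50 were measured on all 3 arrays, 3 on some and 21 on none.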

How the data were processed

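RNA of 3 C2C12 cultures was biotin-labelled for Affymetrix arrays (one-cycle protocol, per the labels' protocols). Deposited were linear intensities, 1 per probe set, which the submitters' processing notes credit to MAS5. The sources used here give no version, scaling target or detection calls. The trimmed mean (2nd to 98th percentile) is 499.9 on each array, so values were taken as scaled by the authors. Of 22690 probe sets 64 are controls. Of the rest 20380 have 1 gene symbol and 691 several, which were named nowhere. By gene ID, 20351 were found in a RefSeq table of GRCm38.p6, and 0 symbols differed. A gene was represented by the probe set with the highest mean log2 signal. Values under the floor (107, the 50th percentile) were set to it before log2.

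With 1 array per group no test was run. Counting was tested on simulated data. The members and lists were chosen with earlier results of these data known. All members may be named. Those at least 2-fold apart, the 3 highest and 3 lowest of each comparison and subunit partners are given with every array. Of other lists, genes at least 2-fold apart are named, and the rest named from them were picked after their values were seen. Probe set suffixes _s_at and _x_at mark sets that may match other transcripts. Alternatives were 3 scalings, floors at the 25th and 75th percentile (15.2 and 562), and 3 other choices of probe set. Python 3.11.15, numpy 2.4.6, pandas 2.3.3 and matplotlib 3.10.9 were used.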

Additional observations from a re-analysis of the deposited data

How the results depend on the processing

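Of 48 recomputed counts and medians, 38 stayed close to the reported value (counts within 1.5 times, medians within 0.1), 9 moved and 1 reversed. The count of members at least 2-fold apart between DGKzeta and EGFP was 3 and became 1 under overall-median scaling, 1 with the floor at the 75th percentile and 1 with all measured probe sets of a gene averaged. Between DGKzeta and untreated cells it was 3 and became 1 under overall-median scaling, and between EGFP and untreated cells it was 0 and became 2 with the floor at the 25th percentile. No share of all genes at 2-fold is given for these other settings, so the changed counts cannot be set beside one. The median log2 ratio to EGFP of -0.25 reversed to 0.09 under overall-median scaling, which by construction moved all genes alike. It moved to -0.14 with medians made equal over sets measured on all 3 arrays, and to -0.14 with the floor at the 25th percentile, where 38 members entered. The median ratio to untreated of -0.29 became -0.03 under overall-median scaling and 0 by second-brightest probe sets, over 17 genes, where all genes with such a set had -0.08. The cause of the last was not tested. No paired analysis was possible because each group has 1 array. Leaving out an array removes its group, so it was not run.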
